A study of Drosophila melanogaster with 15 samples.

Results

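SL2 cells are a male Drosophila melanogaster line derived from embryos, known for blood cell (hemocyte) traits. Their gene expression after control RNAi was read from 1 messenger RNA sequencing library, 1 of 3 such libraries among the 15 samples of a study of CLAMP, a zinc finger protein of the X chromosome. The cells had been under control RNAi for 6 days at 25 C. The labels do not say what sequence it targeted, so the levels below are those of treated cells, not of untouched ones. The 2 knockdown libraries, which were given RNAi against CLAMP and MSL2 in the same line, and the 12 chromatin samples were not used here. All levels are the reads per 1000 bases of transcript and 1000000 reads (RPKM) that the authors deposited, and 1 transcript, the one with the most reads, stood for each gene. In this way 22353 transcripts gave 15139 genes, 3632 of which had more than 1 transcript.

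A cell line keeps the genes that every dividing cell needs and a part of the program of the cell it came from. Ribosomal proteins, chaperones, the proteasome and the enzymes of energy supply are usually read in all cells, whereas receptors of smell and taste, cuticle proteins, digestive enzymes and sperm proteins belong to specialised tissues. Fly hemocytes are known for laying down basement membrane, engulfing dead cells and microbes, and carrying the innate immune receptors. In male flies the MSL complex, with the noncoding roX RNAs, raises transcription of the single X, a process called dosage compensation.

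The deposited library total was 68036170 reads, of which the chosen transcripts held 64647980, or 95.02%. At this depth 3 reads, taken as the limit that a count of 0 allows, correspond to 0.0441 RPKM for a transcript of 1 kb. Intervals given below are exact Poisson intervals for reads and exact Clopper-Pearson intervals for shares at 95% confidence. The Poisson intervals cover counting error only. Those for shares take each gene as an independent draw, which genes are not, and hold no spread between libraries. There was 1 library, no replicate, and therefore no test.

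Several classes of gene had no reads in ways that prevent a reading of absence. The 61 genes placed on the Y chromosome and the 37 mitochondrial genes were all listed at 0, although the 13 mitochondrial protein genes are used by nearly every cell. Of 111 genes of the repeated replication histone cluster, 109 were listed at 0, and all 12 Stellate copies were too. Prosalpha1, a core subunit of the proteasome, and its copy Prosalpha1R were both listed at 0, while the other 31 proteasome subunits in the list were well above 1 RPKM. Among the 607 identifiers with no match in the annotation, 397 had no reads. The sources used here do not give how reads with several matching places were treated, so genes with near-identical copies are uncertain throughout. In addition, 125 genes that were on, 1.67% of them, fell into 62 groups whose chosen transcripts had the same reads and length, on at least 50 reads.

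Most genes were either clearly read or silent. At 1 RPKM or more, called on below, were 7484 of 15139 genes, 49.4% (95% interval 48.6 to 50.2%). Under 0.1 RPKM, called silent below, were 5968 genes, 39.4%, of which 3743 had no read and 1521 had 1 to 3 reads. In between were 1687 genes that together took 0.113% of the reads. The genes that were on had a median of 21.6 RPKM, with quartiles at 9.90 and 43.1. Of these, 4906 genes lay between 10 and 100 RPKM and held 41.3% of the reads, 586 lay between 100 and 1000 and held 26.8%, and 100 genes above 1000 held 29.5%. Restricted to 13340 protein-coding genes outside the histone repeat, the Y and the mitochondrial genome, 54.3% were on and 34.9% were silent.

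**Figure D1:**
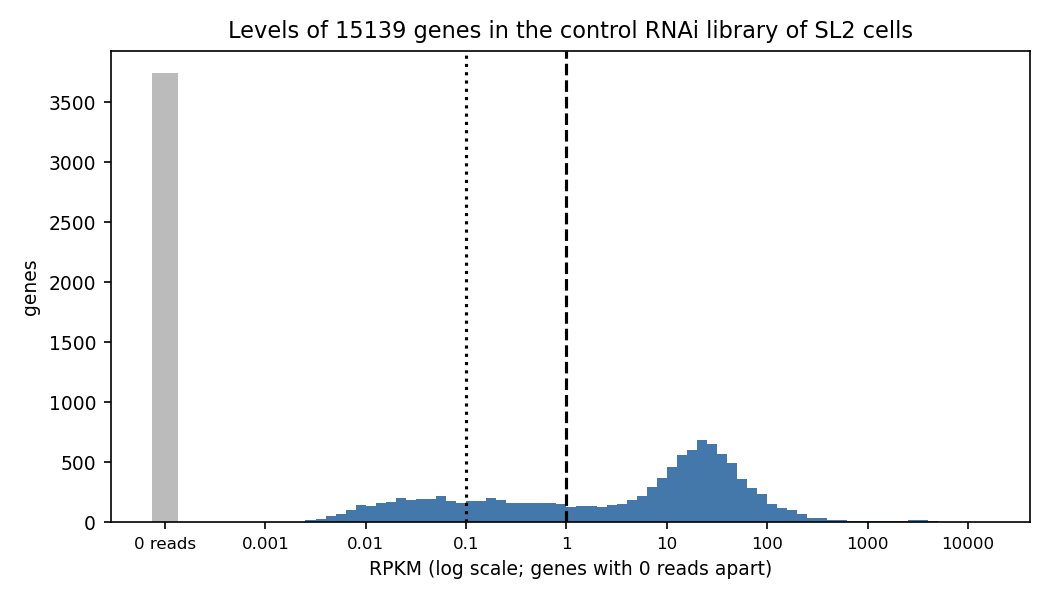
Number of genes (y axis) by RPKM on a log scale (x axis, bins of 0.1 log10 units) in the control RNAi library, with the 3743 genes without reads drawn as a separate grey bar. The dashed line marks 1 RPKM and the dotted line 0.1 RPKM. The main peak lies near the median of the genes that were on, 21.6 RPKM, and a low shoulder runs below 1 RPKM.

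The reads were concentrated in genes of protein synthesis. The 10 genes with the most reads held 9.27% of all reads of chosen transcripts, the top 100 held 32.8%, and 343 genes held 50%. Ribosomal protein genes took 19.9% of the reads and 39.8% of the summed RPKM, and they filled 18 of the 20 highest places by RPKM and 75 of the top 100. Levels among the genes that were on were not ordered by transcript length, with a Spearman correlation across genes of 0.00488. The median length was 1887 bases for genes that were on and 1033 bases for silent ones.

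RpL5, a protein of the large ribosomal subunit, was the highest gene at 9811 RPKM, and eEF1alpha1, which brings aminoacyl-tRNA to the ribosome, followed at 8797. The eEF1alpha1 transcript alone had 1286860 reads, 1.99% of the total over genes. Other ribosomal genes near the top were sta at 7319 RPKM, RpL21 at 7238, RpS15Aa at 5556, RpS3 at 4867 and RpS3A at 4749. The other translation factor among the 20 highest was eEF2, which moves the ribosome along the message, at 3947 RPKM. RpL26, RpL23A, RpLP1, RpS19a, RpS13, RpS2, RpL19, RpL40, RpL7, RpL27A and RpS26 were also among the 20, between 3645 and 4637 RPKM.

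By reads rather than by RPKM, long transcripts of secreted matrix and of fat synthesis joined the top. Col4a1 and vkg, the chains of collagen IV in basement membranes, had 540663 and 343600 reads, with levels of 1346 and 796 RPKM. FASN1, fatty acid synthase, had 513244 reads and stood at 876 RPKM. Act5C, a cytoplasmic actin, had 489709 reads, and Hsc70-4, the main constitutive Hsp70-type chaperone, had 359948. So 3 of the 10 genes with the most reads made collagen or fatty acids.

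The highest protein-coding genes outside the ribosomal proteins and the factors above were looked up after the values had been seen. Act5C stood at 3198 RPKM, the ribosome-bound scaffold Rack1 at 2440, Hsc70-4 at 2193 and the hemocyte peptide precursor Nplp2 at 2094. SPARC, a collagen-binding matrix protein, stood at 2013 RPKM, and the RNA helicase eIF4A of translation initiation at 1996. CG15784, for which no role is given here, reached 1801 RPKM. Tctp at 1785, alphaTub84B at 1738, eEF1gamma at 1729 and Act42A at 1692 followed, and then regucalcin at 1516, Nacalpha at 1499, the chaperone Hsp83 at 1320, the lysosomal protease CtsL1 at 1304, eEF5 at 1303 and the peroxiredoxin Prx2 at 1162.

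Median levels of the cell machinery differed between complexes. The median over members that were on was 2608 RPKM for cytosolic ribosomal proteins, 215 for the CCT chaperonin that folds actin and tubulin, 163 for ATP synthase, 134 for cytochrome c reductase and oxidase, and 117 for the proton-pumping V-ATPase. It was 104 for the coatomer of Golgi vesicles, 94.1 for the proteasome, 82.3 for the cytosolic aminoacyl-tRNA synthetases and 61.7 for respiratory complex I. Lowest were RNA polymerase II at 51.4, the MCM and origin complexes of DNA replication at 35.9, the nucleoporins at 30.6 and mitochondrial ribosomal proteins at 29.0. Members on against members found were 71 of 71 for the mitochondrial ribosome, 18 of 18 for the synthetases, 21 of 21 for the nucleoporins, 11 of 11 for replication, 10 of 10 for RNA polymerase II, 8 of 8 for CCT, 7 of 7 for the coatomer, 31 of 32 for the proteasome, 86 of 93 for the cytosolic ribosome, 13 of 15 for ATP synthase, 33 of 40 for complex I, 16 of 26 for cytochrome c reductase and oxidase and 18 of 33 for V-ATPase. For comparison, 49.4% of all genes were on. Of 43 translation initiation factor genes 36 were on, led by eIF4A, eIF3g1 at 598, eIF3f1 at 565 and eIF3m at 476, while eIF3d2 and eIF3g2 were listed at 0.

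Subunits of some complexes stood at nearly the same level. The 7 coatomer subunits ranged from gammaCOP at 86.3 RPKM to alphaCOP at 139, 1.61-fold in all. The 8 CCT subunits ranged from CCT1 at 115 to CCT5 at 368. The 31 proteasome subunits that were on ranged from the ATPase Rpt5 at 53.8 to the core subunit Prosalpha4 at 184, 3.41-fold, with an SD of 0.44 on the log2 scale. Polr2K at 22.3 and Polr2E at 76.7 bounded the polymerase II subunits, and Orc1 at 10.6 and Mcm2 at 53.1 the replication proteins. In that list all 6 MCM helicase subunits, from Mcm3 at 35.9 to Mcm2, stood above all 5 origin recognition subunits found, of which Orc4 at 21.5 was the highest. CysRS at 36.8 and AsnRS at 236 bounded the synthetases, Nup133 at 14.4 and Nup93-1 at 96.3 the nucleoporins, and mRpS6 at 9.42 and mRpL12 at 100.4 the mitochondrial ribosomal proteins.

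In 6 of the 13 complexes the highest subunit stood at least 10 times above the lowest subunit that was on, and most of these lists hold alternative subunits of restricted use. V-ATPase had 18 of 33 members on, near the 49.4% of all genes. These ran from Vha36-2 at 1.09 RPKM to the membrane ring subunit Vha16-1 at 577, and Vha14-2, Vha16-2 and Vha16-3 were listed at 0. Complex I had 33 of 40 on, from ND-AGGG at 6.48 to ND-MNLL at 141, and ND-20L and ND-B14.5AL were listed at 0. ATP synthase had 13 of 15 on, from ATPsynepsilonL at 2.52 to the catalytic subunit ATPsynbeta at 654. Cytochrome c reductase and oxidase had 16 of 26 on, from COX5BL at 2.34 to COX5A at 362, and the mitochondrially encoded COX1, COX2 and COX3 were among those listed at 0. Of 13 testis-type proteasome subunits, 2 were on, Rpt3R at 4.66 and Rpt6R at 3.41, and 9 were listed at 0. Over all genes 49.4% were on and 24.7% had no reads. Of 13 glycolysis enzymes 12 were on, led by Gapdh2 at 649, PyK (pyruvate kinase) at 350, Tpi at 244 and Eno at 236, with Pfk at 21.0 and the remaining hexokinase Hex-C at 0.307.

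**Figure D2:**
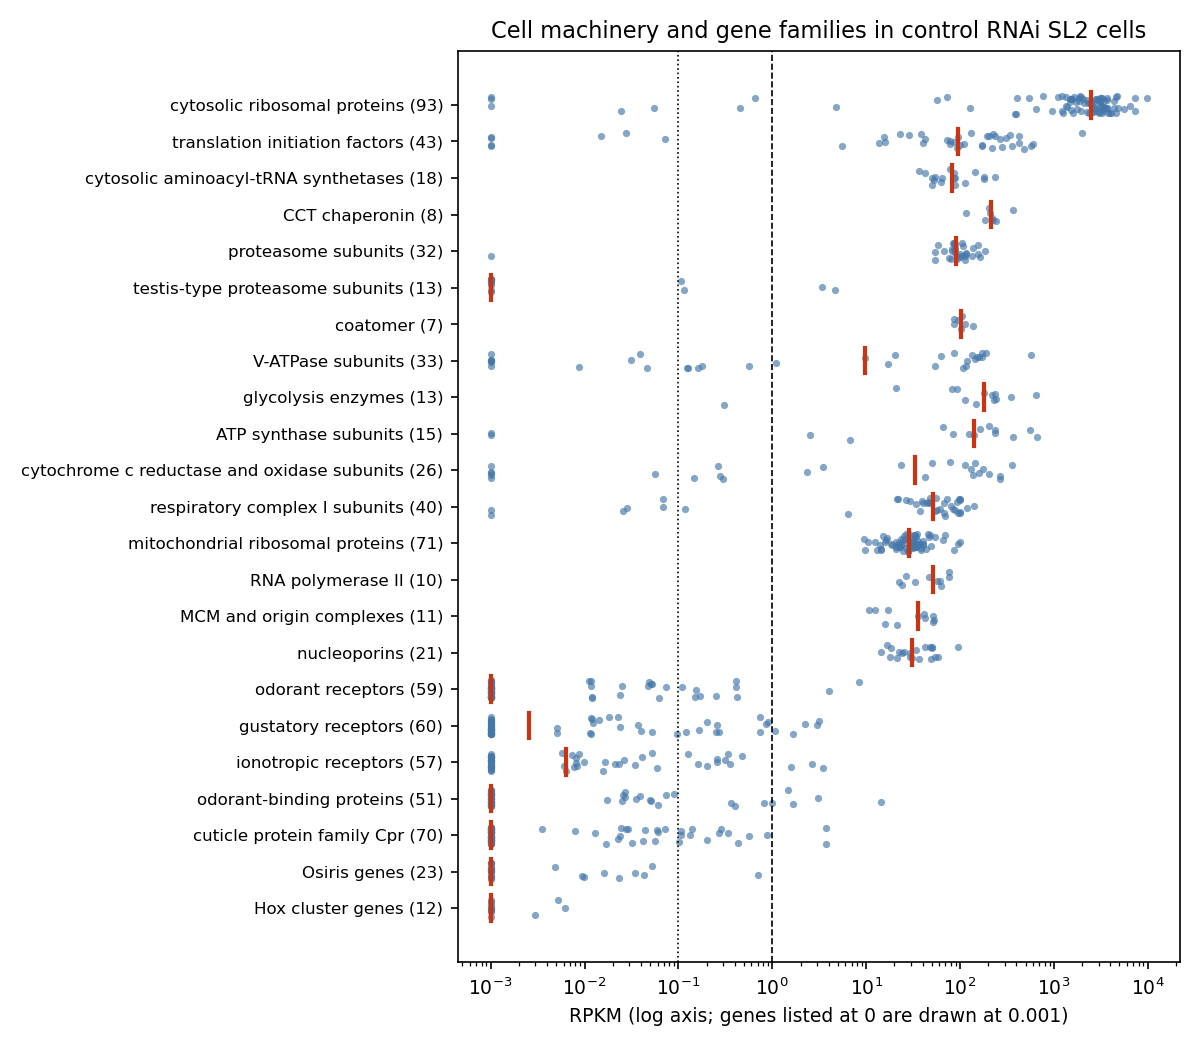
RPKM of every found member (points, log axis, genes listed at 0 drawn at 0.001) of 23 gene lists in the control RNAi library, with the number of members in brackets and the median over all members as a red bar. The dashed line is 1 RPKM and the dotted line 0.1 RPKM. Lists of cell machinery lie to the right of 1 RPKM, with stray members at the left, and chemoreceptor, cuticle, Osiris and Hox lists lie mostly at 0 or under 0.1.

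Hemocyte markers came from a list chosen with earlier results of these data known, so their count is no independent check. Of 22 hemocyte markers 20 were on, against 49.4% of all genes. The median over all 22 was 83.8 RPKM. Nplp2 and SPARC, at 2094 and 2013, and Col4a1 and vkg, at 1346 and 796, were the highest. So the highest genes of this list were those of secreted products and matrix, which do not by themselves set hemocytes apart. Laminin chains followed, with LanA at 412, LanB1 at 406 and LanB2 at 114, and the perlecan gene trol at 84.4. The peroxidasin Pxn stood at 326 RPKM, the PDGF and VEGF receptor Pvr at 135 and the engulfment receptors crq at 102, drpr at 50.3 and eater at 45.9. The blood GATA factor srp stood at 83.3 and its partner ush at 58.2. The plasmatocyte genes He at 40.6, Hml at 14.9 and NimC1 at 4.27 were lower, and NimC1 rested on 593 reads. The glial and blood fate factors gcm, with 1 read, and gcm2, with none, were silent.

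Markers of the other blood cell classes were read unevenly, beside 49.4% of all genes on. None of 4 crystal cell markers was on, with the prophenoloxidase PPO2 at 0.857 RPKM and the Runt factor lz at 0.00424. Of 7 lamellocyte markers 5 were on, namely cher at 167, mys at 94.8, msn at 92.8, shot at 40.9 and PPO3, under the identifier CG2952, at 28.2. The first 4 of these genes are also used by many other cells. Of the more restricted lamellocyte genes, atilla stood at 0.0351 and ItgaPS4 at 0.268.

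Markers of other tissues were mostly silent, and most lists held a few exceptions. Over the 13 lists of other cell types, 46 of 174 different genes were on, against 49.4% of all genes. None of 14 midgut markers was on and all 14 were under 0.1 RPKM. One yolk and eggshell gene of 16, Fcp3C at 7.70, was on, as was 1 of 9 fat body genes, the lipoprotein gene apolpp at 7.78. Cuticle and epidermis had 1 of 14 on, y at 3.80, and photoreceptors 1 of 14, the phospholipase norpA at 15.7, with the rhodopsin gene ninaE listed at 0. Muscle had 3 of 20 on, the myogenic factor Mef2 at 7.88, up at 2.18 and sls at 1.97, while Mhc stood at 0.0165 and Tm2 at 0.00969, and 12 of the 20 were silent. Neurons had 3 of 15 on, the syntaxin gene Syx1A at 72.3, the RNA-binding elav at 8.25 and brp at 4.84, while Gad1 was listed at 0 and VGlut stood at 0.00267.

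Glia and epithelium gave mixed pictures, and the glial share lay near the 49.4% of all genes on. Of 7 glial markers 4 were on, Gs2 at 34.9, moody at 22.8, loco at 21.9 and nrv2 at 17.2, while the glial fate factor repo stood at 0.182 with 37 reads. All 10 epithelial polarity genes were on. The beta-catenin gene arm at 239 RPKM and dlg1 at 73.6 were high, whereas the E-cadherin gene shg at 1.70 and the apical determinant crb at 1.66 were just above the threshold. These genes also work in junctions and cell division outside epithelia.

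Germline genes that were on came mostly from the piRNA pathway, which silences transposons. The list was itself made mostly of genes of that pathway, so this is largely set by the choice of list. Of 19 germline markers 12 were on, against 49.4% of all genes. They were led by tud at 61.2, the Piwi proteins aub at 59.6 and piwi at 45.9, and krimp at 36.5. With mael at 25.7, stwl at 16.7, AGO3 at 15.5, rhi at 14.6, del at 14.1, spn-E at 11.5, zuc at 10.99 and cuff at 2.74, 11 of these 12 genes apart from stwl are known from work on piRNA silencing or its granules. The germ cell genes vas (CG3506) at 0.0643, osk at 0.179, bam at 0.199, bgcn at 0.219, ovo at 0.259 and otu at 0.00907 were not on, nor was the piRNA gene tej at 0.181. Testis genes were mostly silent, with 5 of 25 on and 13 listed at 0. The 5 were mia at 9.61, janB at 4.36, bol at 3.77, twe at 3.29 and topi at 1.76. The sperm chromatin genes ProtA and ProtB were listed at 0, but they are near-identical copies.

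**Figure D3:**
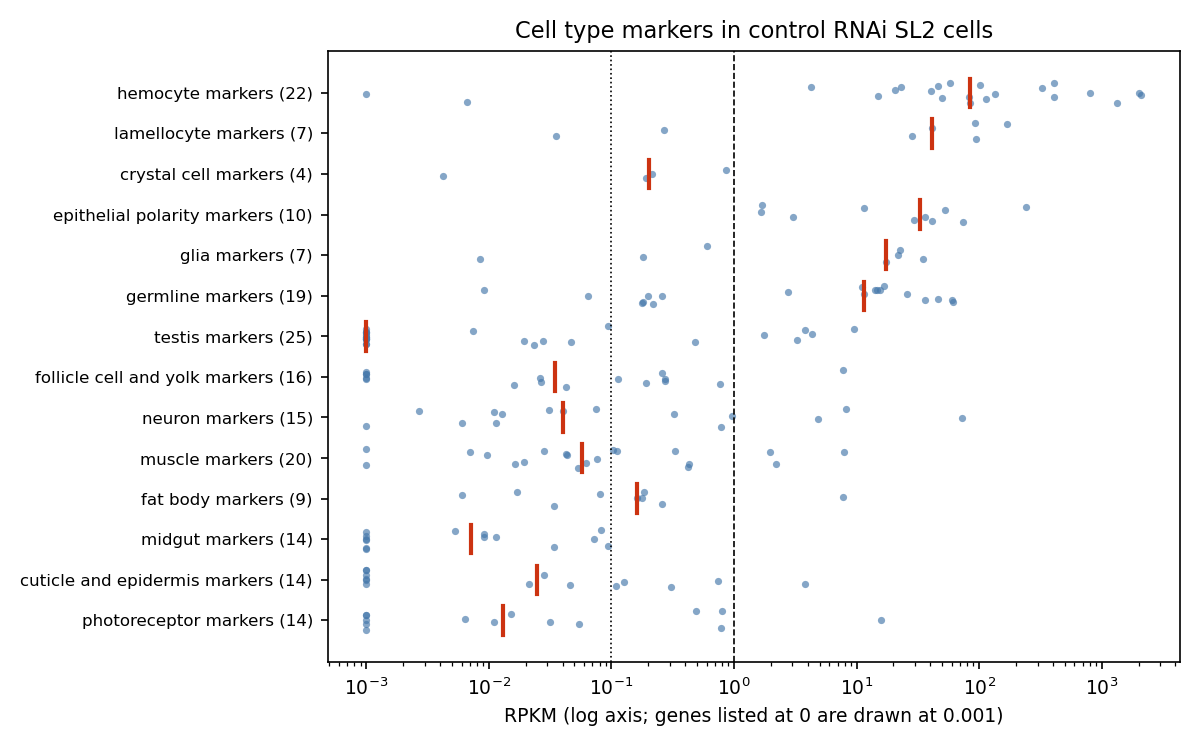
RPKM of every found marker (points, log axis, genes listed at 0 drawn at 0.001) of 14 cell types, with the number of markers in brackets and the median as a red bar. The dashed line is 1 RPKM and the dotted line 0.1 RPKM. Hemocyte markers have a median of 83.8 RPKM, and the medians of the testis, follicle cell, neuron, muscle, midgut, cuticle and photoreceptor lists lie under 0.1.

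Few transcription factors that pattern the embryo were on. None of 12 Hox cluster genes was on, all were under 0.1 RPKM, and the highest was Abd-B at 0.00620. Only 1 of 17 segmentation genes was on, the Hes-type repressor hry at 116, while Kr, en and eve were listed at 0. None of 10 Pax genes was on, toy at 0.352 being the highest. Of 11 proneural and E protein genes 2 were on, the broadly used partner da at 54.2 and its inhibitor emc at 56.8, whereas sc, ase and nau were listed at 0. Against 49.4% of all genes, these 4 lists together had 3 genes on.

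Other factor families were partly read, some at a share near the 49.4% of all genes. Among GATA and Runt factors 4 of 9 were on, and pnr at 106, known from heart and dorsal ectoderm, stood above the blood factor srp at 83.3, followed by GATAd at 13.9 and GATAe at 1.27. Ets factors had 5 of 8 on, pnt at 88.5, aop at 35.9, Ets97D at 23.1, Eip74EF at 5.02 and Ets21C at 3.53. Sox had 2 of 8 on, Sox14 at 12.4 and Sox102F at 6.71. Forkhead had 4 of 12 on, jumu at 40.0, FoxK at 22.6, CHES-1-like at 14.1 and foxo at 4.49. Nuclear receptors had 10 of 20 on, led by Eip75B at 75.04, usp at 58.4, Hnf4 at 39.8 and ftz-f1 at 23.3. Both parts of the ecdysone receptor were among these, usp at the level just given and EcR at 14.3, while knrl and eg were listed at 0. By contrast 14 of 16 bZIP and Myc network genes were on. The stress factors crc, the fly ATF4, at 544 RPKM and Xbp1, of the unfolded protein response, at 378 led them, then the Fos gene kay at 242 and Myc at 67.0.

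In the Wnt, insulin-like and Spatzle families 1 ligand each was on, where 49.4% of all genes were on. Of 7 Wnt ligands 1 was on, Wnt5 at 20.9, and wg stood at 0.00506. Of 10 Wnt receptors 6 were on, led by dnt at 8.73, fz4 at 7.58 and arr at 6.89, while fz itself stood at 0.194. Of 8 insulin-like peptides 1 was on, Ilp6 at 18.4, beside all 11 genes of the downstream pathway, from foxo at 4.49 to S6k at 71.9, with the receptor InR at 22.6. Of 5 Spatzle ligands 1 was on, spz at 76.0, and of 8 Toll receptors 2, Tl at 46.1 and Tollo at 10.2. All 15 Toll and Imd transducers were on, from the intracellular peptidoglycan receptor PGRP-LE at 1.43 to the NF-kappaB factor Rel at 92.0 and the kinase subunit key at 90.6.

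In the EGF pathway, the ligand spi and the inhibitor sty were high, while the receptor and the ligand vn were low. Of its 9 genes 7 were on, against 49.4% of all genes. The ligand spi stood at 228 RPKM, the inhibitor sty at 387, the germline ligand grk at 27.9 and the protease rho, which releases the ligands, at 23.0. Egfr itself stood at 1.31, and vn at 0.444. Among FGF and PVF genes 4 of 10 were on, near the share of all genes. They were the receptor Pvr at 135 and the ligands pyr at 15.5, Pvf2 at 13.7 and bnl at 4.59. The FGF receptors btl at 0.471 and htl at 0.00383 were not on, so pyr and bnl were read without an FGF receptor at 1 RPKM.

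Hedgehog, Notch, TGF-beta and JAK-STAT genes showed the same mixture, beside 49.4% of all genes on. Of 10 Hedgehog genes 8 were on, from Su(fu) at 27.9 and disp at 21.6 to ptc at 5.65, while the ligand hh at 0.581 and the terminal factor ci at 0.226 were not. Of 9 Notch pathway genes 8 were on, with N at 37.7, the protease kuz at 51.0, the ligand Ser at 11.9 and Su(H) at 10.1, and the glycosyltransferase fng at 0.666 was not. Of 11 genes of the E(spl) complex, known Notch targets, 2 were on, E(spl)mbeta-HLH at 23.3 and E(spl)m3-HLH at 4.36. TGF-beta had 4 of 7 ligands on, gbb at 125, myo at 43.8, daw at 24.4 and mav at 21.97, against dpp at 0.645. Of its receptors and Smads 8 of 9 were on, between Dad at 8.33 and Smox at 37.9, and wit, the neuronal type II receptor, stood at 0.0279. In JAK-STAT 6 of 8 genes were on. Stat92E at 111, the receptors et at 128 and dome at 21.2 and the kinase hop at 16.1 were among them, and of the ligands upd3 stood at 1.49, upd2 at 0.687 and upd1 at 0.00636.

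Large families of specialised genes had few members on. Odorant receptors had 2 of 59 on, Or43b at 8.48 and Or45b at 4.01, and 49 were silent, against 39.4% of all genes. Gustatory receptors had 5 of 60 on, led by Gr43a at 3.17 and Gr61a at 3.03, ionotropic receptors 3 of 57, led by Ir75d at 3.48, and odorant-binding proteins 4 of 51, led by Obp44a at 14.4. Cuticle genes gave 2 of 70 on in the Cpr family, 1 of 25 in the Tweedle family and 0 of 23 among Osiris genes. Jonah proteases of the gut gave 0 of 16, and Turandot stress peptides 0 of 8. These shares lie far below the 49.4% of all genes on. Silent were 45 of 60 gustatory receptors, 45 of 57 ionotropic receptors, 43 of 51 odorant-binding proteins and 56 of 70 Cpr genes, so some members of each lay between 0.1 and 1 RPKM.

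In some families 1 member stood far above the rest. Among 10 nicotinic acetylcholine receptor subunits nAChRbeta3 stood at 56.1, and the next one, nAChRbeta2, at 0.293. Among 17 accessory gland peptides Acp95EF stood at 65.9 and the other 16 were under 0.1. Lectin-28C at 29.6 led 13 lectins, of which 2 were on. Tsp42Ee at 377 led 34 tetraspanins, of which 9 were on and 17 silent. The following counts can be read against the 49.4% of all genes on. Glutathione S-transferases had 25 of 35 on, led by GstD1 at 188, GstO3 at 174 and GstE6 at 163, cytochrome P450 enzymes 36 of 81, led by Cyp6a17 at 72.1 and Cyp6a20 at 64.0, and UDP-glycosyltransferases 10 of 35, led by Ugt302C1 at 72.8. Rab GTPases of vesicle traffic had 21 of 23 on, with Rab11 at 128 and Rab1 at 125, while the synaptic Rab3 stood at 0.0509 and Rab26 was listed at 0. Scavenger and Nimrod receptors had 14 of 20 on, led by Sr-CI at 168 and pes at 119.

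Clock and sex genes were each split, with 5 of 8 and 7 of 10 on. The 95% intervals of these shares, 24.5 to 91.5% and 34.8 to 93.3%, both took in the 49.4% of all genes on. The clock kinase dco stood at 69.0, cyc at 20.6, Pdp1 at 19.6, vri at 4.71 and per at 1.56, whereas tim stood at 0.0204, Clk at 0.00795 and cry was listed at 0. Among sex determination genes tra2 at 13.8, tra at 6.73, ix at 24.8, her at 17.2 and fru at 11.6 were on and dsx at 0.491 was not. The male dosage compensation genes msl-1 at 21.6, mle at 21.0, mof at 16.5 and msl-3 at 16.0 were on, as were all 8 genes of the MSL and roX list, whose median was 20.4.

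Where genes come in paralogs, the line mostly used 1 copy. In 27 of 42 paralog sets the highest gene held at least 90% of the summed RPKM, in 19 exactly 1 gene was on, and in 6 the highest held under 60%. Paralogs with near-identical sequence, such as actins, tubulins and H3.3 genes, may exchange reads.

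In the cytoskeleton, actins and myosins known from muscle stood under 1 RPKM, and the highest actin and myosin genes were nonmuscle ones. The tropomyosin Tm2 also stood under 1 RPKM. Act5C at 3198 and Act42A at 1692 were followed by the muscle actins Act57B at 0.425, Act87E at 0.103, Act88F at 0.0280 and Act79B at 0.0193. The nonmuscle myosin zip stood at 167 against the muscle myosin Mhc at 0.0165. Tm1 stood at 88.8 and Tm2 at 0.00969, sqh at 257 and Mlc-c at 154 against Mlc2 at 0.431 and Mlc1 at 0.0618. Among alpha-tubulins alphaTub84B at 1738 led, then alphaTub84D at 104, alphaTub85E at 1.59 and the maternal alphaTub67C at 0.265. Among beta-tubulins betaTub56D at 1132 led betaTub60D at 61.7 and betaTub97EF at 40.5, with the testis betaTub85D at 0.0471. For gamma-tubulin, gammaTub23C stood at 36.7 and the female germline copy gammaTub37C at 0.155. Lam at 163 led LamC at 8.09.

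Most ribosomal and mitochondrial sets also had 1 leading copy. RpL22 stood at 1221 and RpL22-like at 0.0246, RpS5a at 3527 and RpS5b at 0.458, RpS10b at 3060 and RpS10a at 0.663, RpL37-1 at 1520 and RpL37-2 at 0.0544. RpS19a at 4359 and RpS19b at 4.82 were both on, and RpS28a and RpL10Aa were listed at 0 beside RpS28b at 2840 and RpL10Ab at 3066. The RpL34 pair differed, with RpL34b at 1489 and RpL34a at 546. Cyt-c-p stood at 543 and the testis cytochrome Cyt-c-d at 0.168, porin at 234 and Porin2 at 0.467, the mitofusins Marf at 49.5 and the testis gene fzo at 0.478, and sesB at 439 against Ant2 at 7.33. Trx2 stood at 186, TrxT at 0.159 and dhd at 0.0784. In glycolysis Ald1 at 222, Pglym78 at 114 and Hex-A at 92.7 were on while Ald2, Pglym87 and Hex-t1 were listed at 0 and Hex-t2 stood at 0.00921, and both Gapdh2 at 649 and Gapdh1 at 230 were on.

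In other sets several copies were on. eEF1alpha1 at 8797 faced eEF1alpha2 at 0.993, but eIF4E1 at 110 stood with eIF4EHP at 22.8 and eIF4E6 at 15.4, with eIF4E5 and eIF4E7 under 0.1 and eIF4E3 and eIF4E4 listed at 0, and eIF4G1 at 130 with eIF4G2 at 13.8. All 3 TATA-binding proteins were close, Tbp at 21.8, Trf at 15.0 and Trf2 at 14.3. The importins Pen at 165, Kap-alpha3 at 89.1 and Kap-alpha1 at 33.1 were all on, as were CycB at 72.2, CycA at 61.9 and CycB3 at 11.8. Cdc25 was given mainly by stg at 64.0, with twe at 3.29, and the sliding clamp by PCNA at 177, with PCNA2 at 3.67. All 5 Argonautes were on, AGO2 of the siRNA pathway at 168, AGO1 of the miRNA pathway at 72.6, then aub at 59.6, piwi at 45.9 and AGO3 at 15.5. Dcr-2 at 36.0 stood above Dcr-1 at 13.4. RNAi had been applied to these cells, and there was no untreated library.

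The remaining sets covered chaperones, chromatin, membranes and signalling. Hsc70-4 at 2193 was followed by the endoplasmic reticulum chaperone Hsc70-3 at 524 and the mitochondrial Hsc70-5 at 182, with Hsc70-2 at 0.0473 and Hsc70-1 at 0.0351. His3.3B at 812 and His3.3A at 262 were both on. Among innexins the germline gene zpg at 25.9 and Inx2 at 19.7 led Inx7 at 2.76 and ogre at 1.28, while Inx3 at 0.677, Inx5 at 0.406 and shakB at 0.00778 were not on and Inx6 was listed at 0. Fer1HCH at 350 stood beside Fer3HCH at 0.262, and calmodulin, Cam, at 346 beside Acam at 0.0443. Pp1-87B at 198, Pp1alpha-96A at 48.8 and flw at 31.4 were on, Pp1-13C stood at 0.0155 and PpY-55A was listed at 0.

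**Figure D4:**
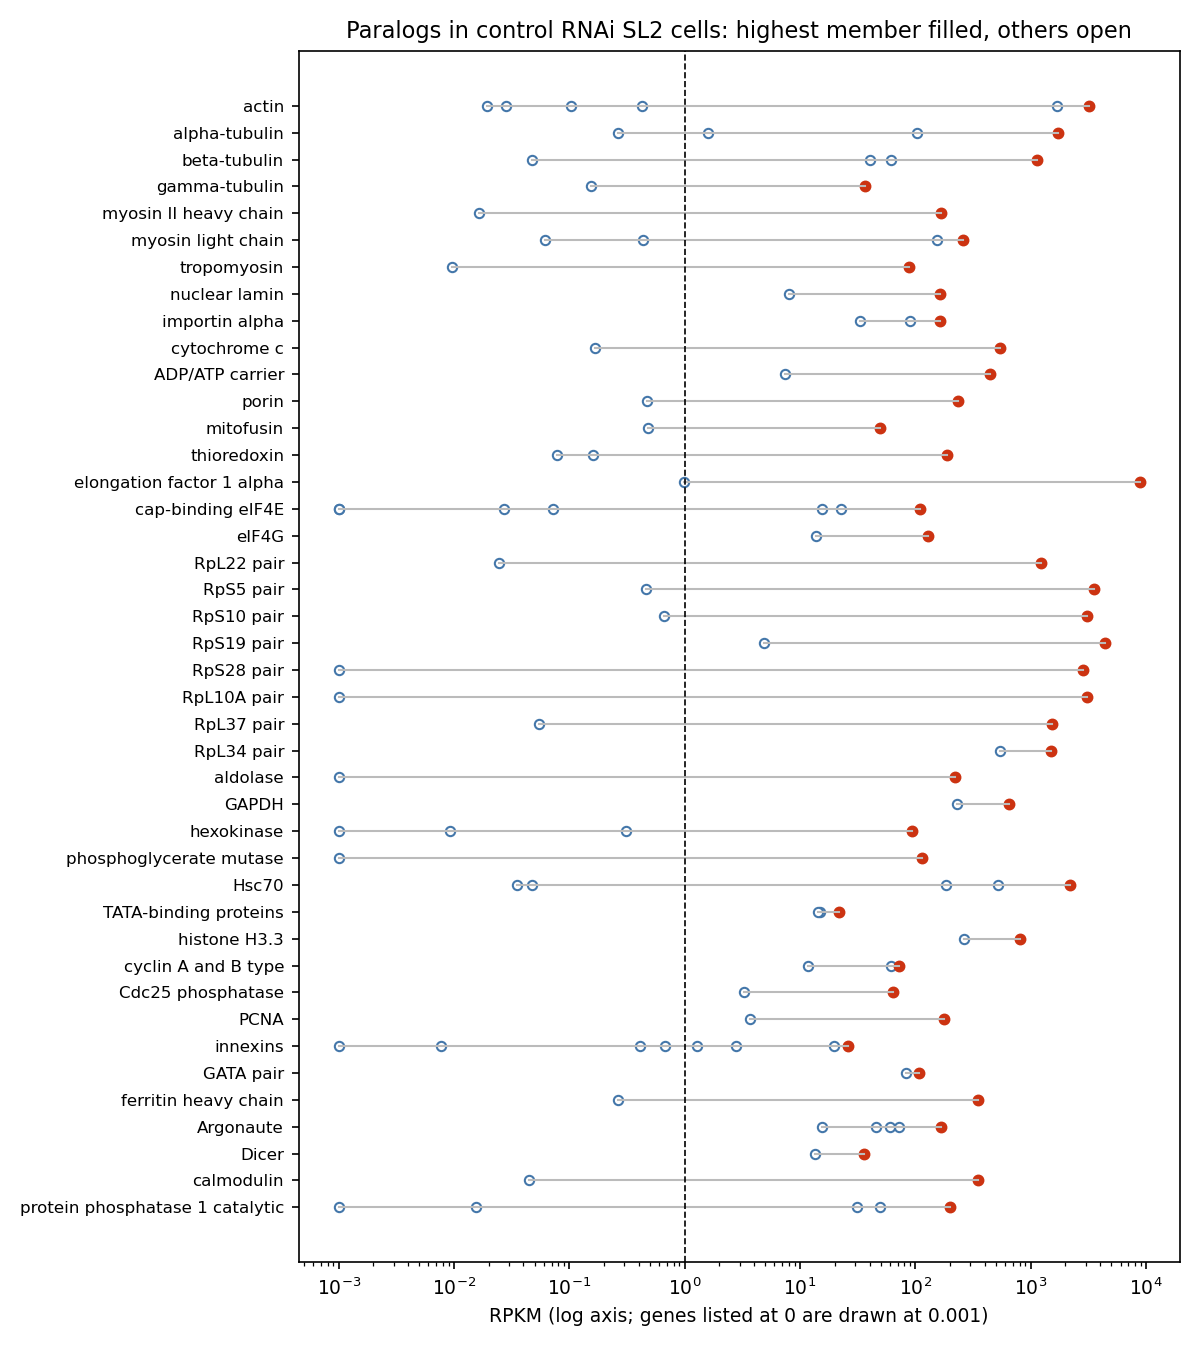
RPKM (log axis, genes listed at 0 drawn at 0.001) of the members of 42 paralog sets in the control RNAi library, with the highest member of each set filled in red, the others open, and a grey line joining the lowest and the highest. The dashed line is 1 RPKM. In 27 sets the highest member holds at least 90% of the summed RPKM.

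Isoforms could be told apart in few genes, because the reads of all transcripts add up to 139678971, more than the library total, so that transcripts of a gene share reads. Of 2071 genes with at least 2 transcripts of 400 bases or more and a highest level of 10 RPKM or more, 1840, or 88.8%, had a highest transcript under 1.5 times the lowest, and the median ratio was 1.08. In 115 genes the ratio was at least 2, and in 19 at least 10. CG32158 had the widest gap, with transcript RE at 48.9 RPKM and RG at 0.0144 RPKM on 5 reads. CG2082 followed with RE at 17.5 and RA at 0.0392, then CG12360 with RB at 68.8 and RC at 0.404, and CG4456 with RB at 15.3 and RA at 0.126. The scaffold gene dlg1 had RE at 75.1 and RJ at 0.766 among 12 transcripts, and mtgo had RG at 62.3 and RD at 0.603. CG34316 with RB at 12.6 and RA at 0.356, and CG33715, with RG at 28.0 over 41809 bases and RB at 0.958, completed the 8 widest. In CG32158, CG2082 and CG4456 the lowest transcript rested on 5 reads each. The RB transcripts of CG4456, the gene Hsp67Bb, and of CG34316 had the same reads and length as a transcript of Hsp22 and of mRpS10, so these 2 gaps rest on a transcript listed under another gene as well.

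The genes of the X chromosome in this male line were set beside those of the autosomes, with the dosage compensation genes given above on. Of 2269 X-linked genes 57.6% were on (95% interval 55.5 to 59.6%), against 50.1% (49.2 to 51.0%) of 12072 genes on the major autosomal arms. The arms ranged from 48.4% on 2L to 51.8% on 3R, so the X lay above each of them. The intervals did not overlap, but they take genes as independent. Genes that were on lay next to each other, as given below, so the intervals may be too narrow. Among protein-coding genes outside the histone repeat the gap was narrower, 58.9% (56.8 to 61.0%) on the X and 53.3% (52.4 to 54.3%) on the autosomes. Silent genes were 30.4% of the X and 38.8% of the autosomal genes. The X thus carried 15.8% of all placed genes, 17.8% of those on and 12.8% of the silent ones.

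Among genes that were on, the X-linked median was slightly below the autosomal one. The X-linked median was 20.3 RPKM (18.7 to 21.6) and that of chromosomes 2 and 3 was 21.9, a ratio of 0.927 with an interval of 0.853 to 0.987. That interval rests on the spread of X-linked genes, which are not replicates, and with genes of at least 5 RPKM it ran from 0.889 to 1.01 and took in 1. Taken arm by arm, autosomal medians ran from 20.8 on 2R to 23.4 on 2L, 0.9501 to 1.07 times the autosomal median, so the X lay just below that range, although its interval took in the 2R median. At other points of the distribution the ratio was 0.884 at the 10th percentile, 0.908 at the 25th, 0.878 at the 75th and 0.941 at the 90th. In 5 classes of transcript length with equal numbers of genes, shortest first, it was 0.860, 0.971, 0.877, 1.00 and 0.887. Over all genes, silent ones included, the direction turned, with medians of 4.45 for the X and 1.02 for chromosomes 2 and 3, and fewer X-linked genes silent. These medians include repeated genes listed at 0. Among protein-coding genes outside the histone repeat the gap was narrower, with medians of 6.30 and 2.61. The number of X and autosome copies in these cells was not measured here.

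Within complexes the X-linked subunits were not lower as a rule. In 12 of 13 complexes with an X-linked subunit that was on, the X median was above the autosomal one in 9 and below it in 3. For 15 X-linked and 70 autosomal cytosolic ribosomal proteins the medians were 2760 and 2521 RPKM, for 11 and 60 mitochondrial ones 31.6 and 28.7, and for 9 and 23 complex I subunits 67.8 and 56.5. The other complexes had at most 4 X-linked subunits each. The 8 highest X-linked genes were sta, RpS15Aa, RpS19a, RpS5a at 3527, Act5C, RpS6 at 3118, RpS10b at 3060 and RpS28b at 2840, all but Act5C ribosomal.

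The small chromosome 4, known for its heterochromatic character, was well read. Of 87 genes 65.5% were on (54.6 to 75.4%) and 19.5% were silent, and the genes on had a median of 25.3 RPKM, 1.16 times the autosomal median. The highest were RpS3A at 4749, ATPsynbeta at 654, the initiation factor eIF4G1 at 130, the complex I gene ND-49 at 101 and Mpv17 at 91.0. All Y-linked genes in the marker list, kl-2, ORY, ARY, Pp1-Y1, Pp1-Y2, Ppr-Y and CR41503, were listed at 0, which for the reason given above is not evidence about the Y in this line.

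**Figure D5:**
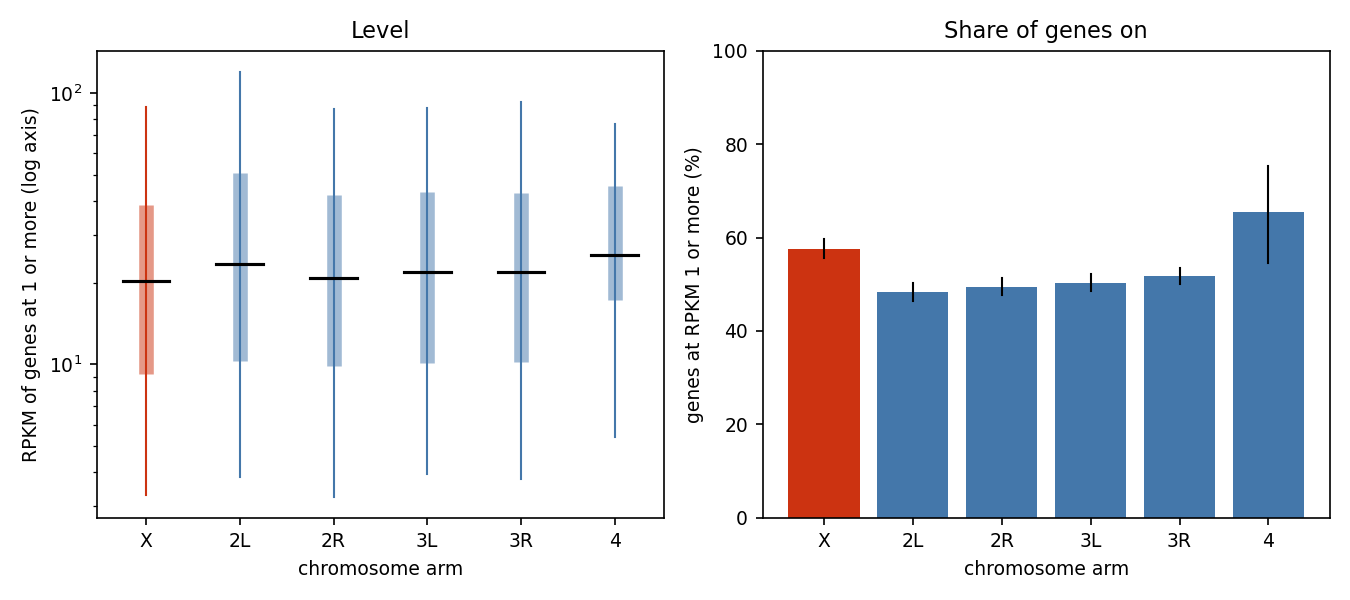
Left, RPKM (log axis) of genes at 1 RPKM or more on each chromosome arm, with the median as a black bar, quartiles as a thick bar and the 10th to 90th percentiles as a thin line. Right, the percentage of genes at 1 RPKM or more with its exact 95% interval. The X has a median of 20.3 RPKM, below the autosomal arms, and a share of 57.6%, above the arms of chromosomes 2 and 3.

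Genes that were on lay next to each other. Along the annotated order of protein-coding genes outside the histone repeat, the next gene was on after 74.4% of the 7049 genes that were on and after 31.3% of the 5768 that were not. On the X the shares were 77.2% and 34.0%, and on chromosome 4, with 54 and 21 genes, 72.2% and 66.7%. Neighbouring genes can overlap and share reads, and tandem duplicates lie together in these counts.

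Silent genes also formed long runs. Over all matched genes there were 88 runs of at least 10 silent genes, holding 1440 genes, and 12 runs of at least 20. The 3 longest were made of repeated genes that this file lists at 0 almost throughout, namely 109 genes on 2R around the 5S ribosomal RNA cluster, and 72 and 65 genes of the histone repeat on 2L. Among protein-coding genes outside that repeat there were 74 runs of at least 10, holding 1054 genes. The longest, looked up after the values had been seen, had 35 genes on 2R between Art7 and Rpi and held 7 reads in all. It included the taste receptors Gr59a to Gr59d and the gonad paralogs RpL22-like, RpL37-2 and Prosbeta5R1, with the germline genes ord, LS2 and Klp59C. A run of 22 genes on 3R held 11 reads and covered the Osiris cluster from Osi1 to Osi18, and a run of 25 on 2L contained the lipase genes Lip1 and Lip2.

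Noncoding RNAs carrying a CR identifier included a few at high levels. The 8 highest of at least 100 bases were led by CR40469 at 1874 RPKM, CR42491 at 605, the snoRNA host Uhg7 at 479 and roX1 at 303. Then came CR32477 at 195, CR33749 at 154, CR33328 at 93.3 and CR32028 at 26.6, of which the last 2 are protein-coding in the newer annotation. Against roX1, lncRNA:roX2 stood at 7.82. CG34335 of 286 bases, which the newer annotation lists as noncoding, stood at 2843 RPKM and fell outside that choice because of its CG identifier. CR40469 with 242 bases and CR33749 with 157 are shorter still. Transcripts this short are near the size of a sequenced fragment, and what that does to their RPKM was not tested.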

How the data were processed

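Of the 15 samples, 1 messenger RNA library of SL2 cells under control RNAi was used, read with the Illumina TruSeq protocol per the labels' protocols. The submitters' processing notes name Bowtie and the genome build dm3. The authors deposited, per transcript, an RPKM value, a whole-number count of reads, a length and the library total, and RPKM equals the count per 1000 bases and 1000000 reads of that total. The sources used here do not give the treatment of reads with several matches.

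For each CG or CR identifier the transcript with the most reads was taken. Names and chromosome arms came from a RefSeq table of Release 6, matching 13783 identifiers by locus tag and 749 by synonym and leaving 607 unmatched. Because that build differs from dm3, no coordinates are given, and no sequence was at hand. Depth was 68036170 reads. With 1 library there was no test. Poisson intervals cover counting error, and Clopper-Pearson intervals take genes as independent (scipy 1.17.1, pandas 2.3.3).

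The genes, 77 lists and 42 paralog sets were chosen with earlier results of these data known. Wrong entries were later corrected by annotation (cyclophilins among P450 enzymes, a mitochondrial protein among cytosolic ribosomal ones, a polymerase I subunit, cuticle proteins among accessory gland peptides, a double entry, the missing RpL37 genes). Of 1610 entries 30 matched no gene and were not analysed here. Named were the highest 20 genes by RPKM and 10 by reads, up to 4 high and 3 silent members of a list (all members of short lists), every paralog, the highest and lowest subunit, the 8 highest X-linked and noncoding genes, 5 of chromosome 4, the 8 widest isoform ratios and the 3 longest silent runs. Others named were chosen after their values were seen. A gene that this rule picks is not reported here.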

Additional observations from a re-analysis of the deposited data

How the results depend on the processing

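No paired analysis was possible because a single control library was used and the replicate numbers in the labels belong to chromatin samples only, and for the same reason no replicate could be left out. Genes on numbered 7478 to 7956 under the other transcript choices, RPKM of at least 0.5 and scaling by the chosen transcripts, 6474 at RPKM of at least 5, and 7421 with transcripts shared between genes counted 1 time. The share of X-linked genes on moved to 61.3% (autosomes 53.1%) at 0.5 RPKM and to 49.4% (autosomes 43.5%) at 5 RPKM, the X staying above. The X to autosome ratio was 0.907 to 0.937 under the other thresholds, transcript choices, the mean of log2 values, chromosome 4 added and protein-coding genes only, (interval 0.889 to 1.01 at RPKM of at least 5) and 4.35 with no filter, where it counts silent genes. With no filter, the protein-coding medians were 6.30 on the X and 2.61 on the autosomes, a narrower gap. The 10 top genes held 9.29% of reads with the longest transcripts and 11.1% of summed RPKM. The highest paralog was the same in all 42 sets under both other transcript choices. The longest silent run was 142 genes when silent meant under 1 RPKM, and 35 among protein-coding genes, an alternative chosen after seeing the data. Over the 77 lists, the members on changed by more than 1.5 times in 12 at 0.5 RPKM, in 16 at 5 RPKM, in 1 with transcripts of at least 400 bases and in 0 with other transcript choices. Depth limits silent genes to 0.0441 RPKM for a transcript of 1 kb, and to less for longer ones. For shorter ones the limit is higher, 0.226 RPKM for RpS28a of 195 bases, above the 0.1 RPKM used for silent. Of the chosen transcripts, 1451 were under 400 bases. Multi-copy genes cannot be judged.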

Other observations

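Further families were taken in full after earlier results were known, and are given as values. Of 14 antimicrobial peptide genes 7 were on, close to the 49.4% of all genes, but none was above Drs at 4.65 RPKM and CecA1 at 4.54, with DptA at 0.0147 and AttC at 0.0170. Their median was 1.08 RPKM, against 29.2 for the Toll and Imd transducers, and the copies AttA and AttB, and CecA1 and CecA2, are alike in sequence and may exchange reads. Of 13 peptidoglycan recognition proteins 7 were on, also near that share, led by the secreted PGRP-SA at 90.005, PGRP-LD at 16.1 and PGRP-LC at 15.1. Of 7 small heat shock genes, Hsp26 stood at 86.8, Hsp23 at 64.8 and Hsp27 at 27.8. Hsp22 and Hsp67Bb were both at 15.3 through transcripts with the same 1985 reads. The separate Hsp22 transcript stood at 30.8 RPKM on 1980 reads, above Hsp27. The separate Hsp67Bb transcript, under CG4456, stood at 0.126 on 5 reads. Of 6 ecdysone synthesis enzymes found only shd, which makes the active hormone, was on at 2.57, beside the receptor genes EcR and usp named above.

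Of 7 integrin subunits 4 were on, near the 49.4% of all genes. They were mys at 94.8, mew at 91.6, scb at 15.7 and Itgbn at 10.2, while if stood at 0.0719. Of 7 caspases 5 were on, led by Drice at 59.9, Strica at 51.4 and Dronc at 21.5. The apoptosis inhibitor Diap1 stood at 290 and Diap2 at 74.0, and of their antagonists rpr stood at 19.8, hid at 3.85 and skl at 0.0106, with grim listed at 0. Of 12 cyclins 11 were on, from CycB3 at 11.8 to CycG at 350, and CycJ, a cyclin of the ovary and early embryo, stood at 0.118. Mmp1 at 66.9 and Mmp2 at 23.2 were on and their inhibitor Timp stood at 0.327.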
